A study of Rattus norvegicus with 6 samples.

Results

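Lysosomal enzymes and cathepsins were examined as a set of 37 genes in rat lung. The set held 8 cysteine cathepsins, 4 aspartic or serine proteases, 9 glycosidases, 7 genes of lipid hydrolysis and transfer, 6 lysosomal membrane proteins, 2 subunits of the V-ATPase proton pump and the transcription factor Tfeb. Members were chosen by name, and the FPKM (fragments per kilobase of transcript, scaled to the depth of the library) of all transcripts that carried a member's name were summed in each sample. All 37 names were found among the 21655 gene names of the table, with 88 of its 70376 transcripts. All 37 were also among the 19645 gene names tested, which had a value above 0 in 3 or more of the 6 samples. The lungs came from Sprague-Dawley rats that were 7 weeks old when the experiment began. Control rats were given saline and PF (pulmonary fibrosis) model rats an equal volume with bleomycin at 7 mg/kg, instilled once into the trachea, and the lungs were collected on day 28. There were 3 control and 3 PF model samples, each with its own library of RNA depleted of rRNA and read as pairs of 150 bases. The groups were compared to ask which transcripts differ in the fibrotic lung. Bleomycin is an antitumour drug that breaks DNA and is used to bring about lung fibrosis in rodents.

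Lysosomes are acidic organelles that break down proteins, glycans and lipids taken up by the cell or delivered by autophagy. Most of their soluble enzymes are tagged with mannose 6-phosphate in the Golgi and sorted by receptors, the V-ATPase pumps in protons, and heavily glycosylated membrane proteins such as LAMP1 and LAMP2 line the membrane. In lung, alveolar macrophages are rich in lysosomes, and the lamellar bodies of alveolar type 2 cells are lysosome-related organelles in which surfactant is processed, partly by cathepsin H and napsin A. TFEB is a transcription factor that binds E-boxes with the core CACGTG in promoters of many lysosomal genes, of which the longer palindrome TCACGTGA is the best-known form.

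The promoters of the set were searched for these letters, since TFEB is known to bind them in many lysosomal genes. RefSeq promoters of build GRCr8, from 250 bases before the annotated start to 50 bases after it, matched 32 of the 37 members, and no promoter was matched for Hexa, Psap, Asah1, Ctsb and Atp6v1h. Both motifs are palindromes, so 1 search covered both strands, and each TCACGTGA contains a CACGTG. TCACGTGA was found in 5 of the 32 promoters (15.6%), against 0.777% of all 33469 promoters of the same length and 1.48% of the 11758 that belonged to gene names tested. CACGTG was found in 8 of the 32 (25%), against 6.42% of all promoters and 8.73% of those of gene names tested. Counting the start base as 0, TCACGTGA began at -11 in Ctsd, at -66 and -39 in Lamp1, at -39 in Cln3, at 3 in Mcoln1 and at -53 in Atp6v0d1. Ctsf, Gaa and Glb1 held only the shorter motif, at -149, -67 and -100. Most of the promoters searched held neither motif. Members were chosen as lysosomal genes, the class in which these motifs are known, so their higher share is no independent result. These matches are letters in a window and no measure of binding. The 5 promoters with TCACGTGA are shown from 100 bases before the start, 5′ to 3′ on the gene's strand, with the motifs in capitals.
Ctsd (chr1:206968772-206968921, minus strand): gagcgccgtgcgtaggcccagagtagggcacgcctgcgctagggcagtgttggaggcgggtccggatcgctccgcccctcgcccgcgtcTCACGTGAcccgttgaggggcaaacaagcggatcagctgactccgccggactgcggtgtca
Lamp1 (chr16:83075014-83075163, minus strand): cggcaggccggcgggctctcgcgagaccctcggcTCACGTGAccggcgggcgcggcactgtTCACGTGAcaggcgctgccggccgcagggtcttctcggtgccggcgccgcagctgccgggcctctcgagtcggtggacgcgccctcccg
Cln3 (chr1:190597880-190598029, minus strand): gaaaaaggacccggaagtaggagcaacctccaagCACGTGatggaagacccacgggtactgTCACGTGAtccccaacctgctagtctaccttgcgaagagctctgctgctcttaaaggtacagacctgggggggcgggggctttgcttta
Mcoln1 (chr12:6358158-6358307, plus strand): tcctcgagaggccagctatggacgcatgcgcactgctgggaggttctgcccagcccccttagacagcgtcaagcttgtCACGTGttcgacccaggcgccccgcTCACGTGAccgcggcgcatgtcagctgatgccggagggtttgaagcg
Atp6v0d1 (chr19:50357199-50357348, minus strand): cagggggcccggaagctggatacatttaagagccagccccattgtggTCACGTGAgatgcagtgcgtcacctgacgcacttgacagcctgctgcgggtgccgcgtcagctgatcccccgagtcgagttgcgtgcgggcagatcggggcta

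The same stretch is shown for the members with the smallest p in each direction, Fuca1 (higher) and Tfeb (lower). Neither motif was found in the 300 bases searched for either gene.
Fuca1 (chr5:153436162-153436311, plus strand): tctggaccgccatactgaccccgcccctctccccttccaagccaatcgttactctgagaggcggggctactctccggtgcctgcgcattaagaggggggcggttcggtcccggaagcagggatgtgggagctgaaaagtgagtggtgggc
Tfeb (chr9:20703075-20703224, minus strand): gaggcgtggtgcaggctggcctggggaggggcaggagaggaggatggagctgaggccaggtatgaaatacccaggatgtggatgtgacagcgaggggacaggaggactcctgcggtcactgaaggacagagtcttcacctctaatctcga

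StringTie coverage corresponded to between 35778631 and 41112682 estimated reads per library, and median-of-ratios size factors of the FPKM lay between 0.979 and 1.02. Surfactant protein C (Sftpc), a marker of alveolar type 2 cells, lay between 2410 and 4146 FPKM, so a defining lung gene was abundant in every library. A defining fibroblast collagen, Col3a1, was 169 ± 13.1 FPKM in control and 208 ± 22.3 in PF model samples (SD, n = 3 per group). Its log2 difference of 0.30 passed the unadjusted p of 0.05 but not the adjusted one (adjusted p = 0.933 by limma). Of the 8 fibroblast markers Col3a1 alone passed the unadjusted p, and 5 lay above 0. Pdgfra, Dcn and Lum lay below 0, at -0.06, -0.13 and -0.10. PF model 3 stood apart in muscle markers. Its heart muscle markers summed to 23.2 FPKM against 6.01 to 11.004 in the other libraries, with Myh6 at 5.11 against 0 to 0.034, and its smooth muscle markers summed to 168 FPKM against 94.3 to 130.3. In whole tissue, fewer cells of a type and less RNA per cell cannot be told apart.

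None of the 37 genes differed between PF model and control samples at a Benjamini-Hochberg adjusted p below 0.05, where limma called 0.0102% of all gene names. The members' adjusted p values lay between 0.933 and 0.996. At an unadjusted p of at most 0.05, 3 members were higher in the PF model (8.11%, against 2.14% of all gene names) and 1 was lower (2.70%, against 2.77%). The higher ones were Fuca1, Ctsd and Ctsh and the lower one was Tfeb. With a required absolute log2 ratio of at least 1 as well, 0 members were called, against 1.52% of all gene names. The F test with the library size as covariate called 0 members after adjustment. Without adjustment it called none of these 4 genes and 2 others, Tpp1 (difference 0.18) and Atp6v1h (0.25), both higher. The 95% interval of every member's difference lay within -1 and 1 on the log2(FPKM + 1) scale, with a median half-width of 0.272. The widest, -0.74 to 0.92, was that of Ctsk, which lay between 0 and 1.06 FPKM. At such levels this scale understates folds, so the fold of Ctsk is not bounded by it.

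The differences were small and mostly on the same side. The log2 difference was above 0 in 31 of the 37 members (83.8%), against 47.5% of all gene names, and its median was 0.10 against -0.01. Among the 11084 gene names with a mean of at least 3 FPKM, 48.1% were above 0 with a median of -0.01. In 5 members every PF model sample lay above every control sample (13.5%, against 4.82% of all gene names), namely Ctsh, Gusb, Atp6v1h, Laptm5 and Fuca1. In 2 members, Ctsl and Tfeb, every PF model sample lay below every control sample (5.41%, against 5.87%). The members are measured in the same 6 libraries, so these counts are no independent replicates. PF model 3, the library with the high muscle markers, was the highest sample for 23 of the 37 genes, and control 3 was the lowest for 12. Without PF model 3, 28 members remained above 0 and the median was 0.05. With FPKM rescaled to TPM, 35 members lay above 0 with a median of 0.19, but 61.3% of all gene names did too, with a median of 0.05.

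**Figure D1:**
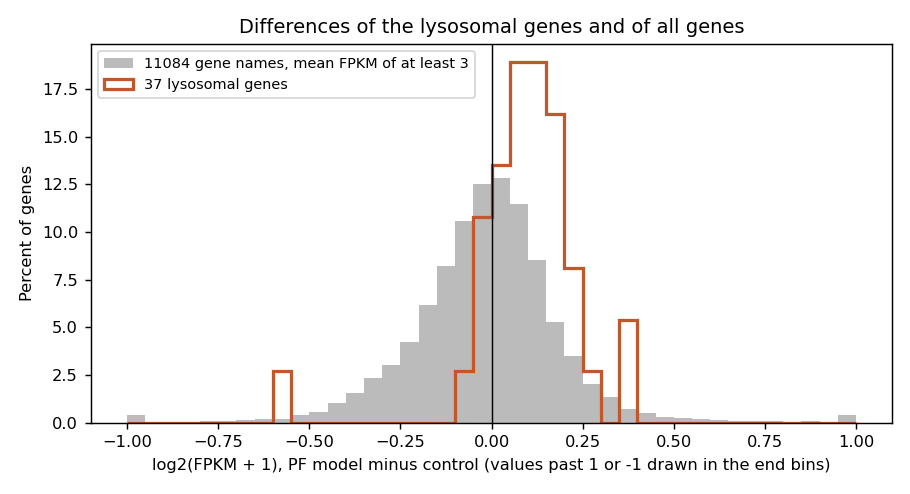
Percent of genes (vertical axis) by log2 difference between PF model and control samples on the log2(FPKM + 1) scale (horizontal axis), for the 37 lysosomal genes (orange line) and the 11084 gene names with a mean of at least 3 FPKM (grey bars). The lysosomal genes centre on a median of 0.10 and the wider set on -0.01, and Tfeb stands alone at -0.58.

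Summed over the set, the members reached 1355, 1246 and 1217 FPKM in control samples 1, 2 and 3 and 1425, 1303 and 1542 FPKM in PF model samples 1, 2 and 3. The groups overlapped, since control 1 lay above PF model 2. The means were 1273 ± 73.0 and 1423 ± 119 FPKM (SD, n = 3 per group), a ratio of 1.12. Without PF model 3 the ratio was 1.07. The 5 most abundant members, Psap, Ctsh, Ctsb, Npc2 and Ctsd, held 45.7 ± 1.47% of the summed FPKM in control and 48.1 ± 0.524% in PF model samples.

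**Figure D2:**
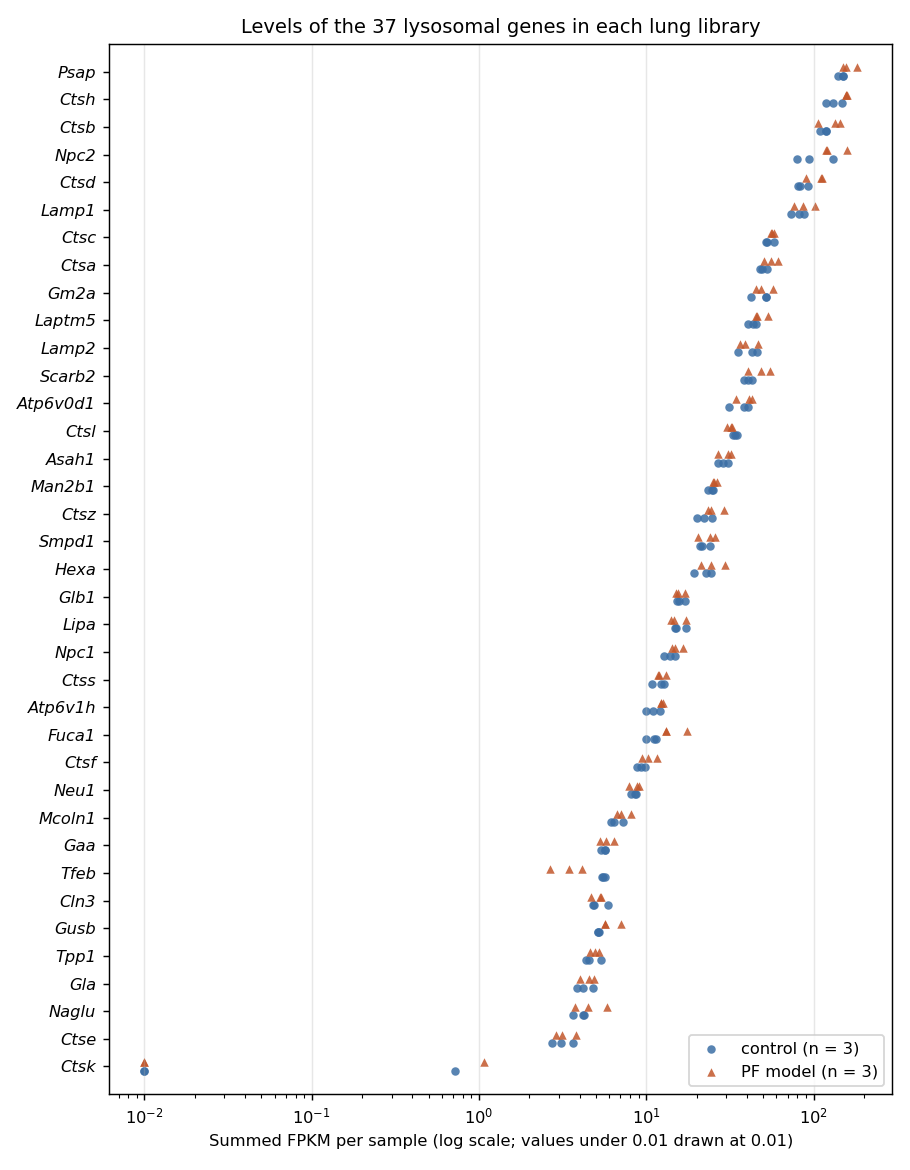
Summed FPKM of each of the 37 genes (horizontal log axis) in the 3 control samples (blue circles) and the 3 PF model samples (orange triangles), ordered by mean. Levels run from Psap, above 140 FPKM in every library, to Ctsk, listed at 0 in 3 of the 6 libraries, and the groups lie well apart for few genes, Tfeb among them.

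Cysteine cathepsins are papain-like proteases, and 7 of the 8 lay above 0 with 1 past the unadjusted p. Ctsh, the aminopeptidase that trims surfactant protein precursors in type 2 cells, was at 149, 131 and 119 FPKM in controls 1, 2 and 3 and at 159, 157 and 156 in PF model samples 1, 2 and 3. The PF model samples were close together and all above the controls, which were spread more widely. The log2 difference was 0.25 (SE 0.101, unadjusted p = 0.0470 and adjusted p = 0.933 by limma, exact permutation p = 0.1). For 3 samples against 3 the exact permutation test can give no p below 0.1. Leaving out any sample other than control 1 took the unadjusted limma p above 0.05, with differences between 0.17 and 0.26, and the difference was 0.33 without control 1. In the F test it was 0.12 and not past the unadjusted threshold. Ctsb, an abundant endo- and exopeptidase, ranged from 110 to 119 FPKM in control and from 106 to 145 in PF model samples, so the PF model samples enclosed the controls. Ctsc, the dipeptidase that activates serine proteases of immune cells, was at 54.2 ± 3.30 and 56.5 ± 1.204 FPKM, and Ctsz, a carboxypeptidase, at 22.3 ± 2.38 and 25.6 ± 3.11 (control and PF model, SD, n = 3 each). Ctsf was at 9.31 ± 0.483 and 10.4 ± 1.11 FPKM.

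Ctsl, an endopeptidase that also degrades elastin and collagen, was the only cysteine cathepsin below 0. Its level was 33.9, 33.1 and 34.9 FPKM in controls 1, 2 and 3 and 32.5, 30.5 and 32.0 in PF model samples 1, 2 and 3. The groups did not overlap, yet the log2 difference of -0.10 (SE 0.0655, unadjusted p = 0.182 and adjusted p = 0.933 by limma, exact permutation p = 0.1) was small, and it was 0.03 with annotated transcripts alone. Ctss, the cathepsin of antigen-presenting cells that trims the invariant chain, was at 11.9 ± 0.950 FPKM in control and 12.2 ± 0.707 in PF model samples. Ctsk, a strong collagenase best known from osteoclasts and also made by fibroblasts, was listed at 0, 0.716 and 0 FPKM in controls 1, 2 and 3 and at 0.003, 0 and 1.06 in PF model samples 1, 2 and 3. The assembly placed Ctsk in 1 locus with its neighbour Arnt, which was at between 8.97 and 18.0 FPKM, and the reads of these neighbours may not have been told apart.

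The 4 aspartic or serine proteases all lay above 0, with 1 past the unadjusted p. Ctsd, the main aspartic protease of lysosomes, was at 92.2, 80.4 and 83.3 FPKM in controls 1, 2 and 3 and at 112, 90.1 and 111 in PF model samples 1, 2 and 3. PF model 2 lay below control 1, and the other two PF model samples lay above all controls. The log2 difference was 0.28 (SE 0.113, unadjusted p = 0.0428 and adjusted p = 0.933 by limma, exact permutation p = 0.2). Leaving out control 2, control 3, PF model 1 or PF model 3 took the unadjusted limma p above 0.05, with differences between 0.23 and 0.27, and the difference was 0.39 without PF model 2. Ctsa, the protective protein of the sialidase and galactosidase complex, was at 49.9 ± 2.37 FPKM in control and 55.9 ± 5.70 in PF model samples. Tpp1, a tripeptidyl peptidase, was at 4.75 ± 0.530 and 4.92 ± 0.298 FPKM, and Ctse, an aspartic protease of epithelial and immune cells, at 3.16 ± 0.457 and 3.28 ± 0.489. The assembly placed Tpp1 in 1 locus with Dchs1 and Taf10. Between 96.2 and 99.98% of Tpp1 FPKM came from the assembled MSTRG.2583.2, so reads of these neighbours may not have been told apart.

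Among the 9 glycosidases, which remove sugars from glycoproteins, glycolipids and glycosaminoglycans, 8 lay above 0 and 1 passed the unadjusted p. Fuca1, the fucosidase, was at 11.2, 11.5 and 10.0 FPKM in controls 1, 2 and 3 and at 13.1, 13.1 and 17.4 in PF model samples 1, 2 and 3. All PF model samples lay above all controls, with PF model 3 well above the other two. The log2 difference was 0.38 (SE 0.130, unadjusted p = 0.0258 and adjusted p = 0.933 by limma, exact permutation p = 0.1). It was 0.25 without PF model 3, and leaving out control 1 or control 3 (differences of 0.39 and 0.32) took the unadjusted limma p above 0.05. Gusb, the glucuronidase, was at 5.21, 5.11 and 5.14 FPKM in controls 1, 2 and 3 and at 5.68, 5.63 and 7.03 in PF model samples 1, 2 and 3. The controls were nearly equal and below each PF model sample, and the difference of 0.20 had a 95% interval from -0.07 to 0.48. Hexa (hexosaminidase subunit alpha) was at 22.03 ± 2.52 FPKM in control and 25.1 ± 4.19 in PF model samples, and Naglu, which acts on heparan sulfate, at 4.04 ± 0.321 and 4.67 ± 1.03. The mannosidase Man2b1 (24.4 ± 1.02 and 25.6 ± 0.606 FPKM) and the sialidase Neu1 (8.44 ± 0.309 and 8.58 ± 0.605 FPKM) differed by less than their SDs summed. The glucosidase Gaa was at 5.56 ± 0.194 and 5.82 ± 0.553 FPKM, the galactosidase Gla at 4.28 ± 0.499 and 4.46 ± 0.430, and the galactosidase Glb1 at 16.0 ± 0.957 and 15.9 ± 1.05.

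The 7 genes of lipid hydrolysis and transfer held 6 above 0 and none past the unadjusted p. Psap, the precursor of the saposins that present sphingolipids to hydrolases, was the most abundant member at 150.4, 141 and 149 FPKM in controls 1, 2 and 3 and 156, 149 and 181 in PF model samples 1, 2 and 3. PF model 3 stood above the rest, and the other two lay at or near the control range. Npc2, which carries cholesterol within the lysosome, had the largest difference above 0. It was at 131, 94.3 and 79.1 FPKM in controls 1, 2 and 3 and at 121, 119 and 157 in PF model samples 1, 2 and 3. Control 1 lay above 2 PF model samples, so the groups overlapped. The log2 difference was 0.40 (SE 0.207, unadjusted p = 0.0997 and adjusted p = 0.933 by limma, exact permutation p = 0.3). Without control 1 it was 0.60 and past the unadjusted threshold. It was 0.24 without control 3, 0.27 without PF model 3 and 0.17 in the F test, none of them past it. Npc1, the membrane partner of Npc2, was at 13.9 ± 1.03 FPKM in control and 15.2 ± 1.21 in PF model samples.

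The acid lipase Lipa was the lipid gene below 0, at 14.9, 15.1 and 17.3 FPKM in controls 1, 2 and 3 and 17.2, 14.1 and 14.7 in PF model samples 1, 2 and 3. The groups overlapped throughout, with a log2 difference of -0.04 (SE 0.105, unadjusted p = 0.711 and adjusted p = 0.979 by limma, exact permutation p = 0.5). The ceramidase Asah1 was at 28.7 ± 2.02 FPKM in control and 29.8 ± 2.74 in PF model samples, and the sphingomyelinase Smpd1 at 22.1 ± 1.67 and 23.4 ± 2.72. Gm2a, which lifts gangliosides for hexosaminidase, was at 48.6 ± 5.51 and 50.3 ± 6.06 FPKM.

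**Figure D3:**
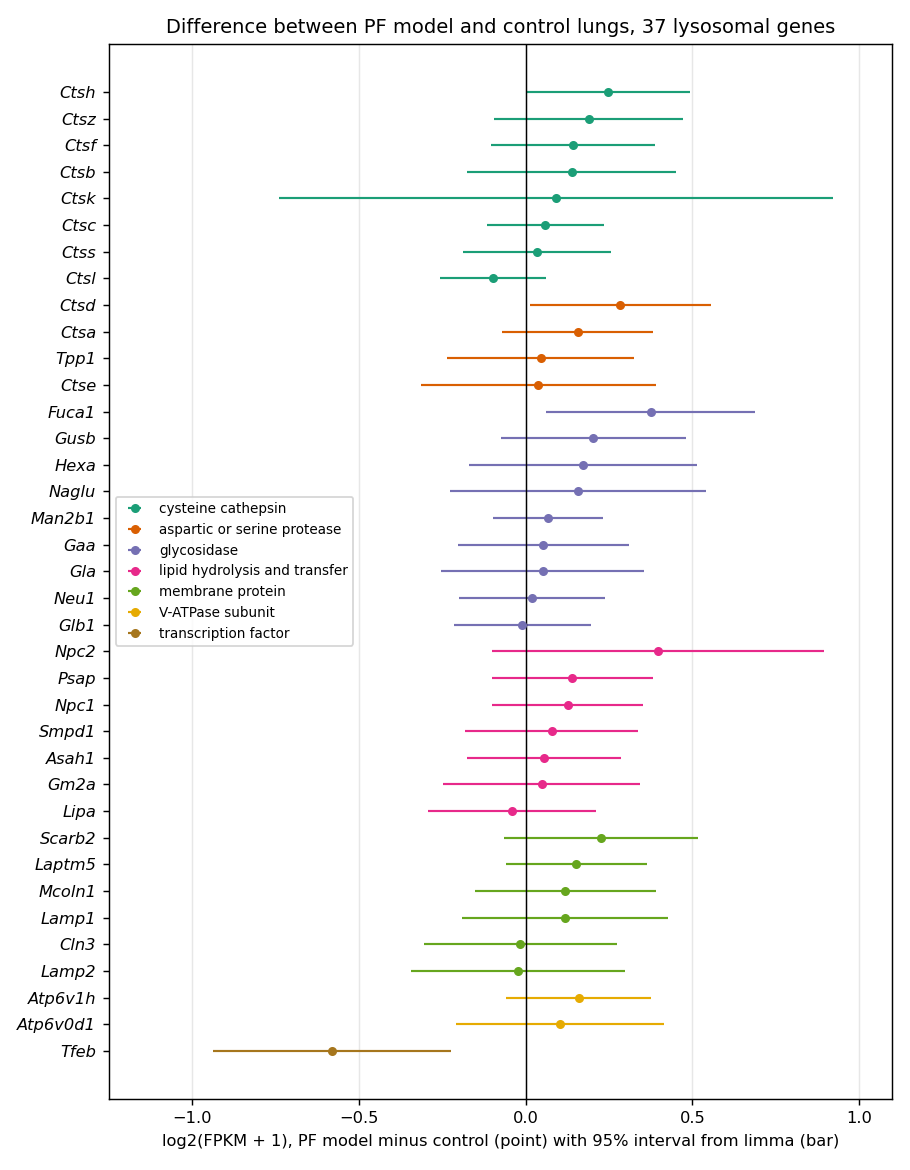
Difference of each of the 37 genes between PF model and control samples (points; horizontal axis, log2(FPKM + 1) scale) with the 95% interval from limma (bars), coloured by role, for 3 samples per group. The intervals of Ctsh, Ctsd and Fuca1 lie above 0, that of Tfeb lies below 0, and the other 33 include 0.

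Of the 6 membrane proteins, 4 lay above 0 and none passed the unadjusted p. Lamp1 was at 80.9 ± 7.07 FPKM in control and 88.2 ± 13.1 in PF model samples. Lamp2, its relative that also serves chaperone-mediated autophagy, was at 45.7, 42.7 and 35.4 FPKM in controls 1, 2 and 3 and 46.7, 36.2 and 38.8 in PF model samples 1, 2 and 3. The groups overlapped throughout, with a log2 difference of -0.02 (SE 0.133, unadjusted p = 0.861 and adjusted p = 0.995 by limma, exact permutation p = 1). Scarb2, the receptor that carries glucocerebrosidase to lysosomes, was at 43.1, 38.2 and 40.5 FPKM in controls 1, 2 and 3 and 48.8, 40.4 and 54.7 in PF model samples 1, 2 and 3, with PF model 2 inside the control range. Laptm5, found in lysosomes of blood-derived cells, was at 40.8, 45.0 and 43.5 FPKM in controls and 45.5, 45.7 and 53.1 in PF model samples. Its groups did not overlap but nearly touched, and the difference of 0.15 had a 95% interval from -0.06 to 0.36. Mcoln1, a calcium channel of the lysosomal membrane, was at 6.62 ± 0.568 and 7.28 ± 0.743 FPKM, and Cln3, the membrane protein lost in juvenile Batten disease, at 5.19 ± 0.613 and 5.11 ± 0.382.

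Both V-ATPase subunits lay above 0. Atp6v1h, of the cytosolic part of the pump, was at 10.99, 10.0 and 12.0 FPKM in controls 1, 2 and 3 and at 12.3, 12.2 and 12.6 in PF model samples 1, 2 and 3. The PF model samples were nearly equal and just above control 3, and the difference of 0.16 had a 95% interval from -0.06 to 0.38. Atp6v0d1, of the membrane part, was at 36.8 ± 4.92 FPKM in control and 39.5 ± 4.43 in PF model samples.

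Tfeb was the member with the smallest p and the only one lower in the PF model at an unadjusted p of at most 0.05. It was at 5.41, 5.53 and 5.68 FPKM in controls 1, 2 and 3 and at 2.67, 3.46 and 4.12 in PF model samples 1, 2 and 3. The controls were nearly equal, and all PF model samples lay below them and were spread out. The log2 difference was -0.58 (95% interval -0.94 to -0.22, SE 0.148, unadjusted p = 0.00688 and adjusted p = 0.933 by limma, exact permutation p = 0.1). The unadjusted limma p stayed below 0.05 when any single sample was left out, with differences between -0.69 and -0.45. The transcripts behind this sum differed from library to library at the locus, chromosome 9 from 15207822 to 15264142 in the files' coordinates, whose build is not given in the sources used here. Control 1 was estimated almost entirely from the annotated transcript ENSRNOT00000039102, at 4.99 FPKM, which was 0 in controls 2 and 3 and in PF model 1 and at 0.796 and 1.14 in PF model samples 2 and 3. Controls 2 and 3 were instead estimated from MSTRG.36371.4, a transcript assembled by StringTie, at 4.76 and 4.64 FPKM, against 0 in control 1 and 0.033, 1.06 and 1.15 in PF model samples 1, 2 and 3. MSTRG.36371.1, an assembled transcript of 4559 bases that is the longest of the locus, was at 0.338, 0.777 and 0.354 FPKM in controls and 1.88, 1.17 and 1.39 in PF model samples. FPKM divides by transcript length, and with the transcripts weighted by length the difference was -0.24 and no longer past the unadjusted p. With annotated transcripts alone it was -0.21 and not past it either. Between 481 and 719 estimated reads per library lay on Tfeb.

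Such switches were not particular to Tfeb. Of the 88 transcripts, 52 were annotated and 36 assembled, and in 15 of the 37 genes assembled transcripts held over 50% of the gene's FPKM in at least 1 sample. In 8 of these, Ctsa, Ctse, Ctsh, Ctss, Npc1, Psap, Tpp1 and Cln3, they did so in all 6 samples. Ctss had no annotated transcript at all, and 98.7 to 99.1% of Psap FPKM came from MSTRG.21919.1. For Ctsh, the assembled MSTRG.35433.2 held between 72.2 and 75.0% in every sample, and the annotated ENSRNOT00000080142 was at 19.5 and 22.4 FPKM in control 3 and PF model 3 but between 2.14 and 2.91 in the other 4 libraries. In Ctsf the split differed between libraries of 1 group: the assembled MSTRG.3497.1 held 63.9 and 64.3% of the gene in controls 1 and 2, 3.50% of the gene in control 3 and 85.8% in PF model 3, with a gene sum of 9.28 and 11.6 FPKM. Mcoln1 likewise drew between 39.5 and 98.1% from the assembled MSTRG.8438.2, and Atp6v0d1 drew 20.9 FPKM in PF model 1 from MSTRG.17668.2, listed at 0 in every other sample.

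For 12 members the gene had 1 transcript, among them Ctsd, Ctsb, Ctsz and Fuca1, so no such split affected them. The name Glb1 covered 2 transcripts on the opposite strand and an intronic one, and these together held between 30.3 and 45.8% of its FPKM. Without them the Glb1 difference was 0.22 in place of -0.01 and not past the unadjusted p; this alternative was added once the data had been seen. Man2b1 and Atp6v1h held over 50% from assembled transcripts in 2 samples each, and Glb1 in 3. Besides Ctsk and Tpp1, the assembly placed Lipa in 1 locus with Ifit1 and Npc1 in 1 locus with AABR07031184.1.

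**Figure D4:**
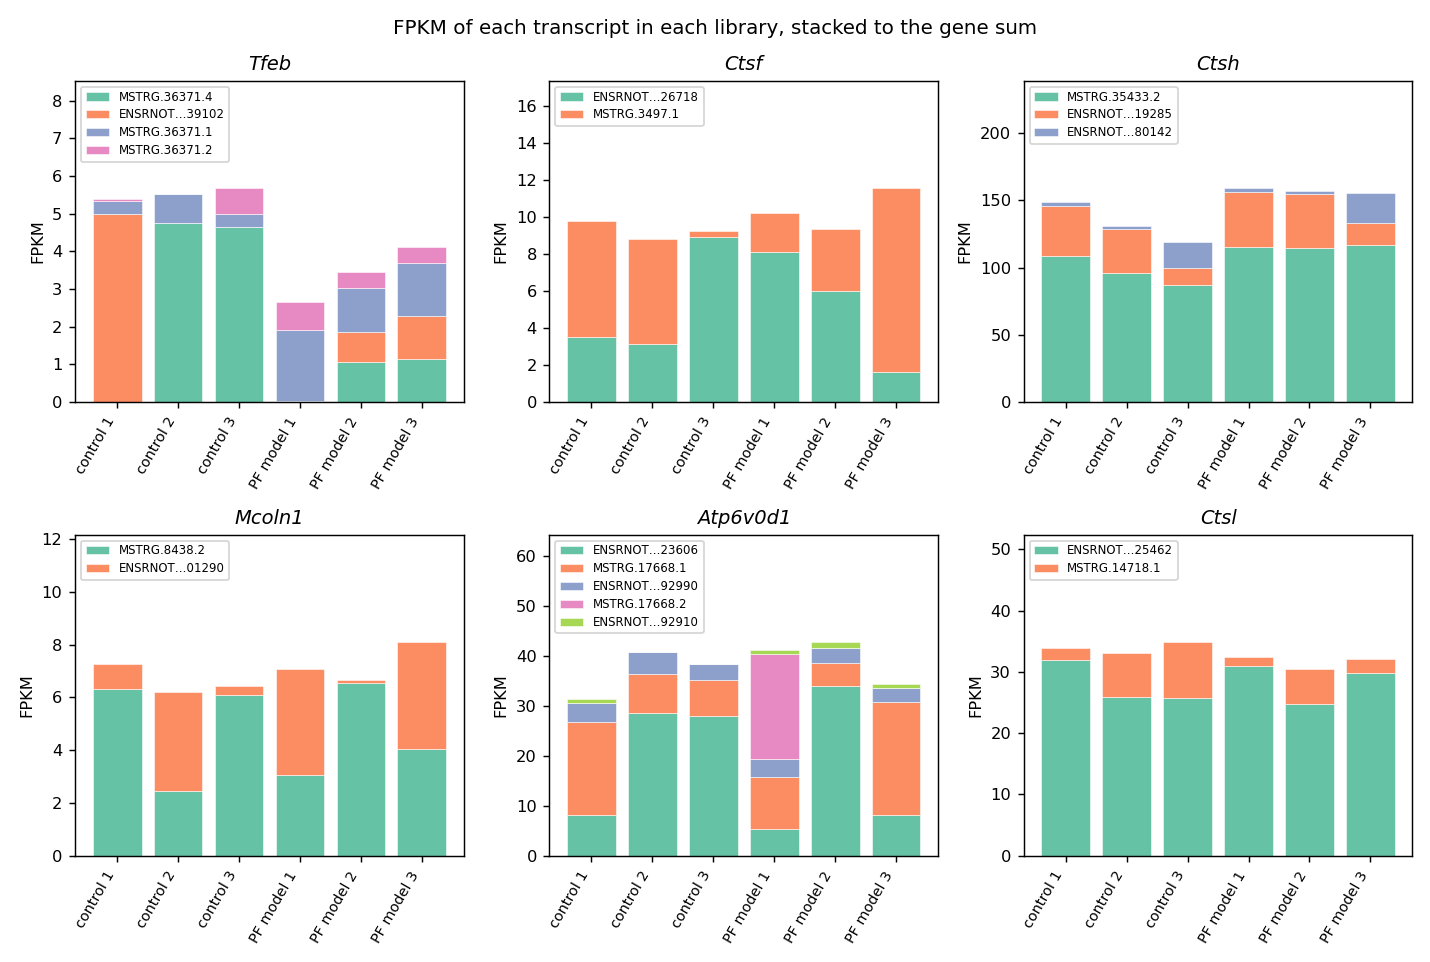
FPKM of each transcript (vertical axis), stacked to the gene sum, in the 3 control and 3 PF model libraries for Tfeb, Ctsf, Ctsh, Mcoln1, Atp6v0d1 and Ctsl. The transcript that holds most of Tfeb differs between control 1 and controls 2 and 3, and the MSTRG.17668.2 bar of Atp6v0d1 appears in PF model 1 alone.

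Other genes of the lysosome were counted from lists of names in the same fit. Of the other hydrolases, 23 of 25 names were found, with a median log2 difference of 0.09. At an unadjusted p of at most 0.05, 2 were higher and 1 was lower, where 2.14% of all gene names were higher and 2.77% lower. Acp5, the tartrate-resistant phosphatase of macrophages and osteoclasts, was at 8.08 ± 1.17 FPKM in control and 12.0 ± 1.07 in PF model samples (log2 difference 0.53) and the sulfatase Arsb at 8.88 ± 0.752 and 11.9 ± 1.82 (log2 difference 0.37). The sulfatase Ids was lower, at 35.7 ± 1.98 against 26.0 ± 3.11 FPKM (log2 difference -0.45). Ppt1, a thioesterase and the most abundant of the list, was at 28.8 ± 3.76 and 33.6 ± 2.41 FPKM and did not pass. After adjustment over all gene names none passed (adjusted p = 0.933 by limma for Acp5, Arsb and Ids).

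Of the other membrane proteins, 20 of 21 names were found, with 3 higher and 2 lower at an unadjusted p of at most 0.05 and a median of 0.08. None of the 5 passed adjustment (adjusted p = 0.933 by limma for each), and over all gene names 2.14% were higher and 2.77% lower at that unadjusted p. The tetraspanin Cd63 was at 30.5 ± 0.241 FPKM in control and 36.9 ± 2.06 in PF model samples, Laptm4b at 15.4 ± 0.166 and 17.9 ± 1.104, and Sidt2 at 27.7 ± 1.85 and 31.8 ± 0.572. Slc11a1, the metal transporter of phagocyte lysosomes, was among the lower, at 7.09 ± 0.532 and 5.05 ± 0.936 FPKM, as was Mfsd8, at 4.64 ± 0.480 and 3.47 ± 0.209. The most abundant, Laptm4a, was at 74.0 ± 5.84 and 78.3 ± 6.79 FPKM. No gene of the remaining lysosomal lists passed the unadjusted p. Among these were the other cathepsins and related genes, with 5 of 14 names found. The 3 tested were Ctsw, Napsa and Tinagl1, and their median of -0.02 was the value of Ctsw. The aspartic protease Napsa was at 81.3 ± 9.91 and 90.0 ± 6.75 FPKM. Of the cathepsin inhibitors 6 of 10 names were found (median 0.09), with cystatin C (Cst3) at 125 ± 10.7 and 139 ± 17.4. The 22 of 23 other V-ATPase subunits found had a median of 0.02, and the most abundant, Atp6v0c, was at 69.2 ± 3.56 and 79.0 ± 8.06 FPKM. The 9 of 10 genes of mannose 6-phosphate sorting had a median of 0.01, with Sort1 at 40.1 ± 2.05 and 43.0 ± 4.55 FPKM. The 12 regulators of lysosomal genes had a median of 0.05, and Mitf, a relative of Tfeb, was at 24.5 ± 1.70 and 27.7 ± 5.06 FPKM.

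Markers of lysosome-rich cell types, of fibroblasts and of other lung cells were read beside the set. The 8 alveolar type 2 markers summed to 6361, 4945 and 4595 FPKM in controls 1, 2 and 3 and 6261, 5410 and 6981 in PF model samples 1, 2 and 3. These sums were highest in PF model 3 and lowest in control 3, as the sums of the lysosomal genes were. Most of each sum was Sftpc, which with Slc34a2 was highest in PF model 3. Sftpa1, Sftpb, Abca3 and Napsa were highest in PF model 1, Lamp3 in control 1 and Sftpd in control 2. The alveolar type 1 and endothelial sums were lowest in control 3 too, at 691 and 276 FPKM, but not highest in PF model 3. Of the type 2 markers 8 of 8 lay above 0 with a median of 0.20 and 0 past the unadjusted p. Lamp3 and Napsa stood on the type 2 list and on the lysosomal lists as well. The 13 of 14 macrophage markers found summed to 5657, 4752 and 4751 FPKM in controls and 6233, 4527 and 5142 in PF model samples, with 8 above 0, 0 past the unadjusted p and a median of 0.03. PF model 2 was the lowest library for these, and most of the sum was Lyz2. Cd68, both a macrophage marker and a lysosomal membrane protein, was at 1.30 FPKM in control 3 and 1.21 in PF model 2 and between 20.7 and 22.8 in the other 4 libraries. The 8 fibroblast markers summed to 418, 407 and 383 FPKM in controls 1, 2 and 3 and 445, 448 and 513 in PF model samples 1, 2 and 3. These sums did not overlap between groups, and they too were highest in PF model 3 and lowest in control 3. Of the 8 genes 5 lay above 0 with a median of 0.17, and Col3a1 alone passed the unadjusted p. Of the 5 mast cell markers 2 lay above 0, and Kit passed, at 27.7 ± 2.52 FPKM in control and 32.5 ± 1.69 in PF model samples. Of the 4 heart muscle markers tested 3 lay above 0, and Nppa passed, at 0.036 ± 0.062 and 0.157 ± 0.009 FPKM. At that unadjusted p 2.14% of all gene names were higher, and neither gene passed adjustment (adjusted p = 0.933 by limma for each). The part of these cell types, and of the muscle markers of PF model 3, in the lysosomal differences was not tested.

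**Figure D5:**
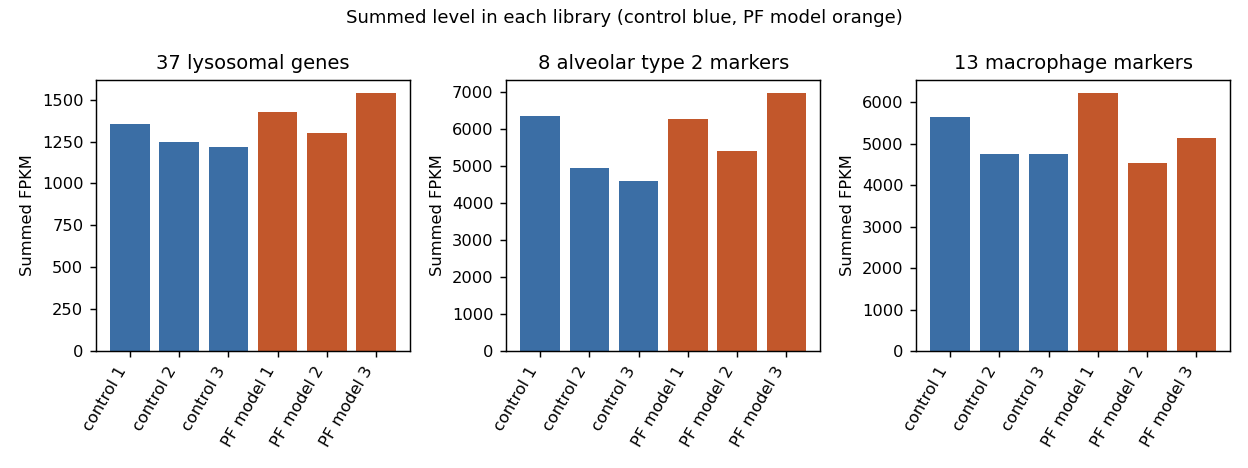
Summed FPKM (vertical axes, from 0) of the 37 lysosomal genes, the 8 alveolar type 2 markers and the 13 macrophage markers in each library, with control samples in blue and PF model samples in orange. For the lysosomal genes and the type 2 markers PF model 3 is highest and control 3 lowest, and most of the type 2 sum is Sftpc. The macrophage sum is highest in PF model 1 and lowest in PF model 2.

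Circular RNAs of the members had few reads. They made up 9 of the 5216 circRNAs, from 7 host genes, where the members were 37 of the 21655 gene names. They held 16 of the 14904 back-splice reads, with 1 to 4 reads per library. Laptm5 had 3 reads in control 2, Man2b1 had 2 in control 1 and 1 in control 3, and Npc1 had 2 in PF model 3. Lamp2 had 2 in PF model 1, Glb1 1 each in PF model samples 2 and 3, and Atp6v1h 1 in control 1. Ctsh gave 3 intronic circles with 1 read each, 2 in PF model 2 and 1 in PF model 3. At this depth no difference between groups was detectable.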

How the data were processed

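Lung RNA of 3 control and 3 PF model samples was analysed, grouped by the sample type in the labels. The authors describe the libraries as 3 of PF model rats and 3 of controls. The labels do not say that each sample came from a separate rat, and if they did not, p-values measure only the spread between these samples. The authors used Cutadapt for trimming, Bowtie2 with Tophat2 for mapping and StringTie for assembly and merging, and deposited FPKM and coverage (a signal not scaled for depth) per transcript from StringTie and Ballgown. The submitters' processing notes also name HISAT2. They deposited raw counts of back-splice reads per circRNA from Tophat-fusion and CIRCexplorer, and a scaled signal (SRPBM) that was not used. The genome build is not given in the sources used here. The deposited GO and KEGG annotation was not used.

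FPKM were summed per gene name, 19645 names with FPKM above 0 in at least 3 samples were kept, and groups were compared on log2(FPKM + 1) with limma 3.58.1 (trend, two-sided) in R 4.3.3, and single members also with a two-sided exact permutation test. Folds on this scale understate the change of low genes. Reads were estimated as coverage times length divided by 150. Scripts ran in Python 3.11.15 with numpy 2.4.6, pandas 2.3.3 and matplotlib 3.10.9, and permutation tests used scipy 1.17.1. The fit was checked on simulated data. Members and lists were chosen with earlier results of these data known. Full statistics were set for members with an unadjusted p of at most 0.05 and for the 4 with the smallest p in each direction. Genes of the other lysosomal lists were named where they passed that p or were the most abundant of their list. Genes of the marker lists that passed that p were named. Cd68, Lyz2, Myh6, Arnt, Ctsw, Tinagl1, Pdgfra, Dcn, Lum and the type 2 markers other than Napsa were named after their values were seen. The alveolar type 1 and endothelial sums were added then too. Alternatives were other pseudocounts, filters, gene sums, scalings and tests, the fit with a block for the replicate number, and each sample omitted in turn.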

Additional observations from a re-analysis of the deposited data

How the results depend on the processing

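With 3 samples per group, a difference below the half-width of its interval (0.158 to 0.832) could not pass the unadjusted p of 0.05. The adjusted p asks for more, and Tfeb at -0.58 did not pass it (adjusted p = 0.933 by limma). Estimated reads were at least 223 per library for every member except Ctsk. In all 17 alternatives 0 members passed the adjusted p, 0 passed p with fold, and between 28 and 35 lay above 0. The 3 members higher at an unadjusted p became 1 with a filter at a mean of at least 1 FPKM, 1 with annotated transcripts alone, 1 with the replicate block, and 0 to 5 when single samples were left out. The count of 0 came without control 3 and the count of 5 without PF model 2 (Ctsa, Ctsb, Ctsd, Fuca1 and Scarb2). The 1 lower member, Tfeb, became 0 with transcripts weighted by length, with annotated transcripts and in the F test. Across all gene names, the 298 past p and fold became 84 with the filter at a mean of 1 FPKM, 519 with annotated transcripts and 153 in the F test. The members' median of 0.10 became 0.19 as TPM, and 0.050 to 0.17 when single samples were left out, and the summed ratio of 1.12 became 1.19 as TPM and 1.07 to 1.17 without single samples. Ctsl was at 0.033 with annotated transcripts. Lipa was at 0.040 as TPM, 0.056 in the F test and between -0.12 and 0.022 without single samples. Lamp2 was at 0.048 with annotated transcripts, 0.060 as TPM, -0.19 in the F test and between -0.13 and 0.051 without single samples. The cause of these shifts was not tested.

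Deviations from the group mean had correlations of 0.0647, 0.0276 and -0.0784 between samples of the same number in both groups. Between samples of different numbers they lay between -0.128 and 0.0960. With deviations from means of 3 samples, this check cannot exclude that samples were paired. The labels state no pairing, and the main fit took the numbers as names of samples. With the replicate block, 312 gene names passed p and fold, 1 member was higher and 1 was lower.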
